A study of Mus musculus with 11 samples.

Results

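A set of 9 genes of retinoid handling and of the epicardium, the cell layer that covers the heart, was followed in RNA sequencing counts of 11 mouse hearts. They are Stra6, Aldh1a1, Aldh1a2, Crabp2, Rarb, Wt1, Upk3b, Msln and Tbx18, 9 of 55421 genes in the table, and all 9 were found by symbol. The set was chosen by the values of Stra6, which was higher in infarcted hearts of mice that received the ADAM10 inhibitor than in those that received solvent. Values of the members in that contrast are therefore a description, no p is given for any of them, and the counts of calls printed for it support nothing.

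The mice were female C57BL/6J, 8 weeks old, and tissue was taken 3 days after surgery. In 4 mice (A105, A127, A128 and A129, the DMSO group) the left anterior descending artery was permanently ligated and osmotic minipumps delivered the solvent DMSO. In 4 further mice (A116, A117, A119 and A120, the A10i group) the same ligation was followed by 100 mg/kg of GI254023X in DMSO, a hydroxamate inhibitor of the sheddase ADAM10. The 3 Sham mice (S1, S2 and S3) were labelled as DMSO treated and gave healthy heart tissue, whereas both other groups gave infarct together with its border zone. No sham mice with the inhibitor were analysed here, so the inhibitor is seen only in infarcted tissue and at 1 dose.

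Retinol circulates bound to a carrier protein and enters cells through the receptor STRA6. Inside the cell it is oxidised to retinaldehyde and then, by the retinaldehyde dehydrogenases ALDH1A1, ALDH1A2 and ALDH1A3, to retinoic acid, which CRABP2 carries to nuclear receptors such as RARB. In the developing heart the epicardium is a known source of retinoic acid made by ALDH1A2, and adult epicardium takes up fetal genes such as Wt1 and Aldh1a2 after injury. WT1 and TBX18 are transcription factors of the epicardium, and UPK3B and MSLN are surface proteins of mesothelium, the tissue type to which the epicardium belongs.

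Rarb itself is a textbook target of retinoic acid, which acts through pairs of short sites in the DNA. RefSeq promoters (GRCm38.p6, 250 bases before to 50 after a start site) were found for 6 of the 9 members, namely Stra6, Aldh1a1, Aldh1a2, Rarb, Upk3b and Tbx18. They were searched on both strands for direct repeats of 6-base sites spaced by 5 or by 2 bases. The site allowed was AGGTCA, the variant spelled AGTTCA, the variant spelled GGGTCA, or the variant spelled GGTTCA, in any pairing. The repeat with a spacing of 5 stood in 32 of 32851 promoters of the same length (0.0974%) and the repeat with a spacing of 2 in 88 (0.268%). Of the 10 entries of the members, the Rarb entry alone held one, with a spacing of 5, from 53 to 37 bases before the start site. The 250 bases upstream of that Rarb start are shown for this repeat, with its 6-base sites in capitals. They lie on the minus strand at chr14:16575477-16575726, inside the Rarb gene as GENCODE draws it and partly over the antisense gene Gm48162. The 250 bases before the first Stra6 entry (plus strand, chr9:58128838-58129087, inside the annotated Stra6 gene) are set beside them because Stra6 chose the set.
Rarb: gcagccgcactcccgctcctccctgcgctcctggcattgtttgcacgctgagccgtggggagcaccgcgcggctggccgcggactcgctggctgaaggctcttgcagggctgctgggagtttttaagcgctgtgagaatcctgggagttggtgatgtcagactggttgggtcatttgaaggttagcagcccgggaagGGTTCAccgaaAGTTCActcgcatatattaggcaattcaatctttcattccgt
Stra6: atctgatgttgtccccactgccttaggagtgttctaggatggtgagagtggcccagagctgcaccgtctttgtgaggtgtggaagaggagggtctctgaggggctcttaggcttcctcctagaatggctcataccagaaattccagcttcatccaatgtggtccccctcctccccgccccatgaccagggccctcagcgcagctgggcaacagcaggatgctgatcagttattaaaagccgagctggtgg
A match describes letters in the DNA and not binding, and its absence says only that these letters were not in these windows.

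Library totals lay between 21702623 and 29511768 counts. Levels are given as CPM, counts scaled to a common library size by TMM normalization. Cardiomyocyte markers were present in all hearts: the 7 listed summed to 64870 to 65980 CPM in Sham, 30660 to 44000 in DMSO and 35870 to 49820 in A10i mice. Myh6 made most of that difference (38160 CPM on average in Sham and 16830 in DMSO mice), and 4 of the 7 were called lower between DMSO and Sham mice. In bulk tissue, fewer cells of a type and less RNA per cell cannot be told apart, and this holds for every gene below. A gene was called at an adjusted p under 0.01 in edgeR's quasi-likelihood test over all genes. Between DMSO and Sham mice, 12.9% of 17117 genes tested were called higher and 9.6% lower. Between A10i and Sham mice, 13.7% of 16971 genes were called higher and 9.11% lower. Both comparisons share the 3 Sham mice.

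**Figure D1:**
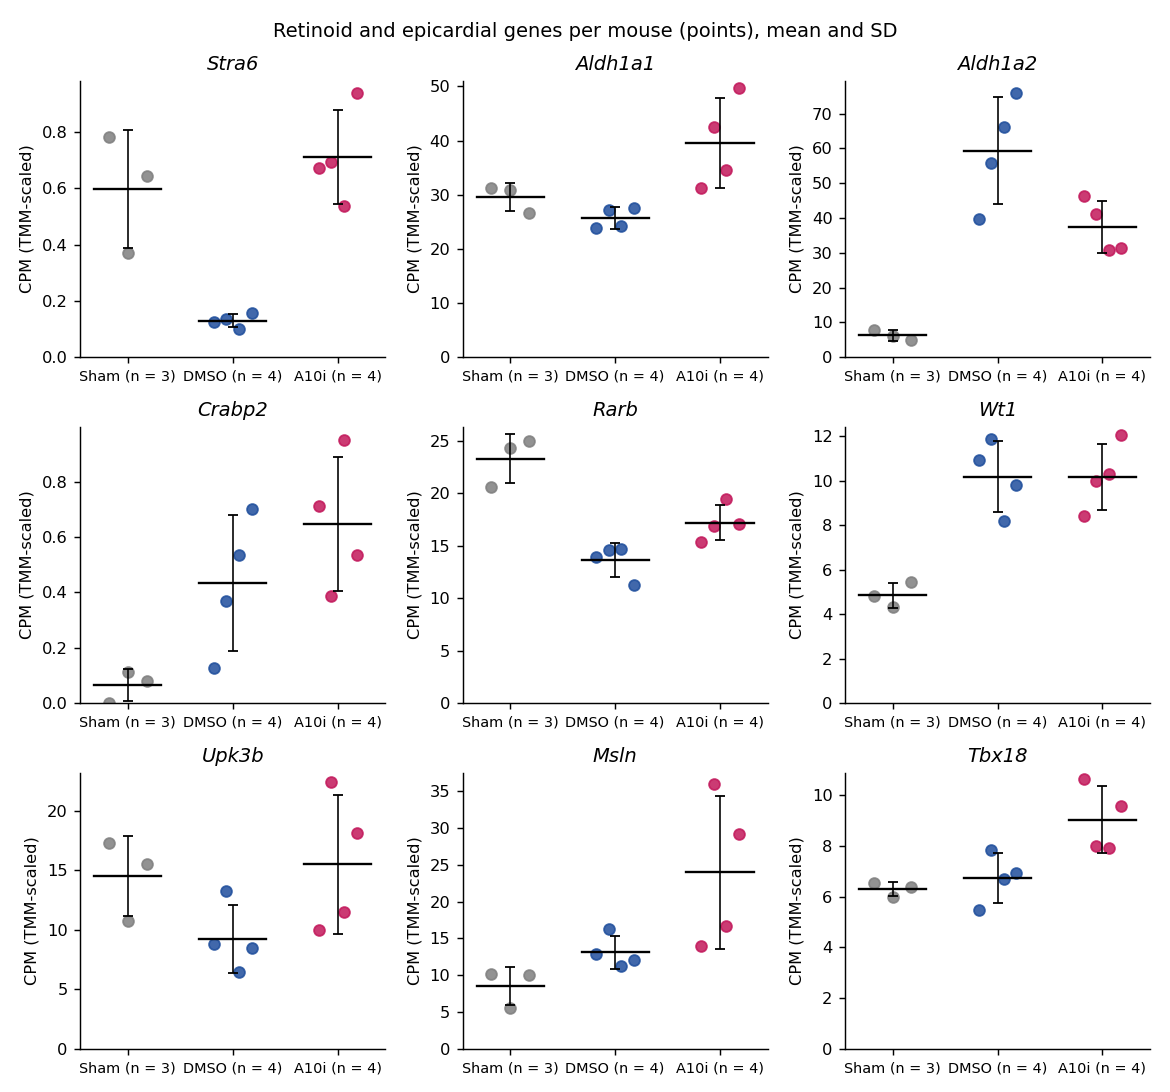
Level of each of the 9 genes in CPM (vertical axis, linear from 0) in every mouse of the Sham, DMSO and A10i groups; points are mice, long lines are means and bars are SD. Stra6 was at 0.101 to 0.156 CPM in the DMSO mice, below every mouse of the other groups, and Aldh1a2 was at 4.83 to 7.79 CPM in Sham mice, below every infarcted heart.

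Stra6, the retinol uptake receptor (chromosome 9, 58063788 to 58153996, plus strand, GRCm38), was a rare transcript in all hearts. Its raw counts were 18, 10 and 16 in Sham mice, 3, 4, 3 and 4 in DMSO mice, and 17, 18, 13 and 21 in A10i mice. In CPM these were 0.783, 0.371 and 0.643 in Sham mice, 0.127, 0.134, 0.101 and 0.156 in DMSO mice, and 0.672, 0.695, 0.538 and 0.940 in A10i mice. The DMSO mice thus lay below both other groups without overlap, and the A10i mice overlapped the Sham mice. The pooled rate in A10i mice was 5.49 times that in DMSO mice (69 against 14 counts, exact 95% interval 3.06 to 10.6), and that in DMSO mice was 0.219 times that in Sham mice (interval 0.111 to 0.407). Against Sham mice the A10i rate was 1.20 times as high (interval 0.811 to 1.79). These intervals cover counting error only, and no test is attached because these values chose the set. The fitted log2 fold change between A10i and DMSO mice was 2.43 ± 0.33 (SE), and that between A10i and Sham mice, 0.26 ± 0.336, became -0.0015 without S2. Stra6 did not pass the filter on low counts between DMSO and Sham mice.

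The enzymes of retinoic acid synthesis differed in their response to infarction. Aldh1a2 (chromosome 9, 71215789 to 71296243, plus strand) had 7.79, 6.16 and 4.83 CPM in Sham mice, 39.8, 55.7, 66.1 and 75.8 CPM in DMSO mice, and 46.2, 41.1, 30.9 and 31.5 CPM in A10i mice. Every infarcted heart was above every Sham heart, whereas the DMSO and A10i groups overlapped. The log2 fold change was 3.24 ± 0.254 (adjusted p = 9.45e-05) between DMSO and Sham mice and 2.59 ± 0.202 (adjusted p = 0.000122) between A10i and Sham mice. Aldh1a2 was the one member lower in A10i than in DMSO mice, by a log2 fold change of -0.66 ± 0.202.

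Aldh1a1 (chromosome 19, 20492715 to 20643465, plus strand), the other retinaldehyde dehydrogenase of the set, was not called in either infarcted group. Its levels were 31.2, 30.9 and 26.5 CPM in Sham mice, 23.8, 27.3, 24.3 and 27.6 CPM in DMSO mice, and 31.3, 42.6, 34.6 and 49.7 CPM in A10i mice. The A10i mice were all above the DMSO mice and, by a narrow margin, above the Sham mice. Aldh1a1 was not called between DMSO and Sham mice (log2 fold change -0.21 ± 0.0957, adjusted p = 0.11), where its sign turned with library size scaling (0.0029), nor between A10i and Sham mice (0.42 ± 0.153, adjusted p = 0.054), except with library size scaling (0.00892). The A10i to DMSO value was 0.63 ± 0.141.

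On a scale per transcript length (RPKM), which allows genes to be compared, the balance of the 3 retinaldehyde dehydrogenases turned from Aldh1a1 to Aldh1a2. Aldh1a2 made up 34.3, 30.0 and 27.4% of the summed RPKM of Aldh1a1, Aldh1a2 and Aldh1a3 in Sham mice. Its share was 76.4, 78.7, 83.3 and 83.2% in DMSO mice and 72.7, 65.6, 63.8 and 56.7% in A10i mice. All 3 groups were apart from each other. The summed level was 8.97 ± 1.13 RPKM (SD, n = 3) in Sham, 32.4 ± 7.24 (SD, n = 4) in DMSO and 25.4 ± 3.14 (SD, n = 4) in A10i mice. Each infarcted group lay above Sham in share and in sum without overlap. An exact two-sided permutation test gave p = 0.0571 each time, the smallest p that 4 against 3 mice allow. This test could not reach 0.05 and adds nothing to the lack of overlap.

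**Figure D2:**
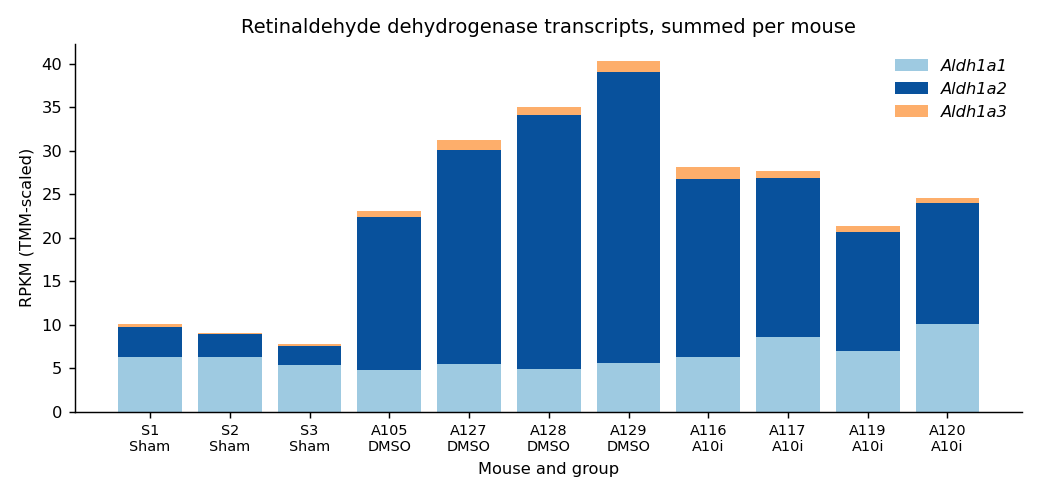
Summed RPKM (vertical axis, from 0) of Aldh1a1, Aldh1a2 and Aldh1a3 in each mouse, stacked by gene, with mouse and group on the horizontal axis. The sum ran from 7.79 to 10.03 in Sham, 23.0 to 40.2 in DMSO and 21.4 to 28.1 RPKM in A10i mice, and most of the added height is Aldh1a2.

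Crabp2 (chromosome 3, 87948666 to 87953376, plus strand), which carries retinoic acid to the nucleus, was a rare transcript like Stra6, with a different order of groups. Its counts were 0, 3 and 2 in Sham mice, 3, 11, 16 and 18 in DMSO mice, and 18, 10, 23 and 12 in A10i mice. A10i mice were all above Sham mice, and in the DMSO group A105 was close to S2. The pooled rate was 6.598 times that of Sham in DMSO mice (48 against 5 counts, exact 95% interval 2.64 to 21.2) and 9.65 times in A10i mice (63 against 5, interval 3.92 to 30.7). Both intervals cover counting error only. Crabp2 was called between A10i and Sham mice (log2 fold change 3.19 ± 0.623, adjusted p = 0.00311) and not between DMSO and Sham mice (2.63 ± 0.774, adjusted p = 0.0227). The call was lost without each Sham mouse (adjusted p = 0.013 without S1, 0.0109 without S2 and 0.0156 without S3), and the gene passed the filter on low counts only through the infarcted groups, so its calls are no support for a rise. Between DMSO and Sham mice it passed with no filter (adjusted p = 0.00631) or without A105 (0.00785). The A10i to DMSO value was 0.56 ± 0.448, and ran from 0.28 without A105 to 0.87 without A129.

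Rarb, the retinoic acid receptor beta (chromosome 14, 16430839 to 16819156, minus strand), was called lower than in Sham mice in both infarcted groups. It had 20.6, 24.3 and 24.97 CPM in Sham mice, 14.0, 14.6, 14.7 and 11.3 CPM in DMSO mice, and 15.4, 16.9, 19.4 and 17.1 CPM in A10i mice. The 3 groups did not overlap, with A10i in between. The log2 fold change against Sham was -0.78 ± 0.115 in DMSO mice (adjusted p = 0.000904) and -0.44 ± 0.1 in A10i mice (adjusted p = 0.00681). The second call was lost without S2, S3, A117 or A120 (adjusted p = 0.0364, 0.0386, 0.0146 and 0.0196), with library size scaling (0.0609) and in a fit of all 11 mice (0.0112). The A10i to DMSO value was 0.34 ± 0.111. Of the 5265 exon bases of Rarb, 1793 are shared with Top2b on the opposite strand, which had 2075 to 2920 counts, and whether the counting used strand is not given in the sources used here.

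Among the epicardial members, the transcription factor Wt1 (chromosome 2, 105126529 to 105173616, plus strand) rose in both infarcted groups. It had 4.83, 4.31 and 5.43 CPM in Sham mice, 10.9, 11.9, 8.19 and 9.80 CPM in DMSO mice, and 8.42, 10.002, 10.3 and 12.0 CPM in A10i mice. Both infarcted groups were above Sham without overlap and covered much the same range. The log2 fold change against Sham was 1.06 ± 0.158 in DMSO (adjusted p = 0.000947) and 1.07 ± 0.145 in A10i mice (adjusted p = 0.00058). Between A10i and DMSO mice it was 0.0088 ± 0.146, a value whose sign changed with library size scaling (-0.01) and without A128 (-0.08), A129 (-0.0061) or A120 (-0.08).

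Tbx18 (chromosome 9, 87702800 to 87731260, minus strand), the other epicardial transcription factor, had 6.53, 5.98 and 6.39 CPM in Sham mice, 5.46, 7.83, 6.68 and 6.95 CPM in DMSO mice, and 10.6, 7.99, 7.90 and 9.58 CPM in A10i mice. DMSO mice surrounded the Sham mice, and A10i mice were above both. Tbx18 was not called between DMSO and Sham mice (log2 fold change 0.09 ± 0.145, adjusted p = 0.653), a value of 0.01 to 0.16 with 1 mouse left out. It just missed the threshold between A10i and Sham mice (0.52 ± 0.133, adjusted p = 0.0111). That threshold it passed without A117 or A119 (adjusted p = 0.00932 and 0.0084), with library size scaling (0.00603), with no filter (0.00437) and in DESeq2 (0.00497). The A10i to DMSO value was 0.43 ± 0.147.

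The mesothelial surface genes were not called against Sham and varied widely among the A10i mice. Msln (chromosome 17, 25748613 to 25754378, minus strand), which encodes mesothelin, had 10.1, 5.49 and 9.97 CPM in Sham mice, 12.9, 16.3, 11.2 and 12.1 CPM in DMSO mice, and 13.9, 36.0, 16.7 and 29.2 CPM in A10i mice. Each infarcted heart was above each Sham heart, and A117 and A120 were highest. Msln was not called between DMSO and Sham mice (log2 fold change 0.62 ± 0.217, adjusted p = 0.0467), a value that was 0.38 without S2. Nor was it called between A10i and Sham mice (1.502 ± 0.369, adjusted p = 0.0131). In the latter it passed without A119 (adjusted p = 0.00545), with library size scaling (0.00541), in a fit of all 11 mice (0.00675) and in DESeq2 (0.00316). Upk3b (chromosome 5, 136038496 to 136046487, plus strand), a uroplakin of mesothelial cells, had 17.3, 10.7 and 15.6 CPM in Sham mice, 8.80, 13.2, 6.44 and 8.43 CPM in DMSO mice, and 9.96, 22.4, 11.5 and 18.1 CPM in A10i mice. All 3 groups of Upk3b overlapped, again with A117 and A120 highest. It was not called between DMSO and Sham mice (-0.66 ± 0.241, adjusted p = 0.056) or between A10i and Sham mice (0.10 ± 0.287, adjusted p = 0.809), where the sign turned without S2 (-0.08) or A117 (-0.13). The A10i to DMSO values were 0.88 ± 0.284 for Msln and 0.76 ± 0.289 for Upk3b.

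**Figure D3:**
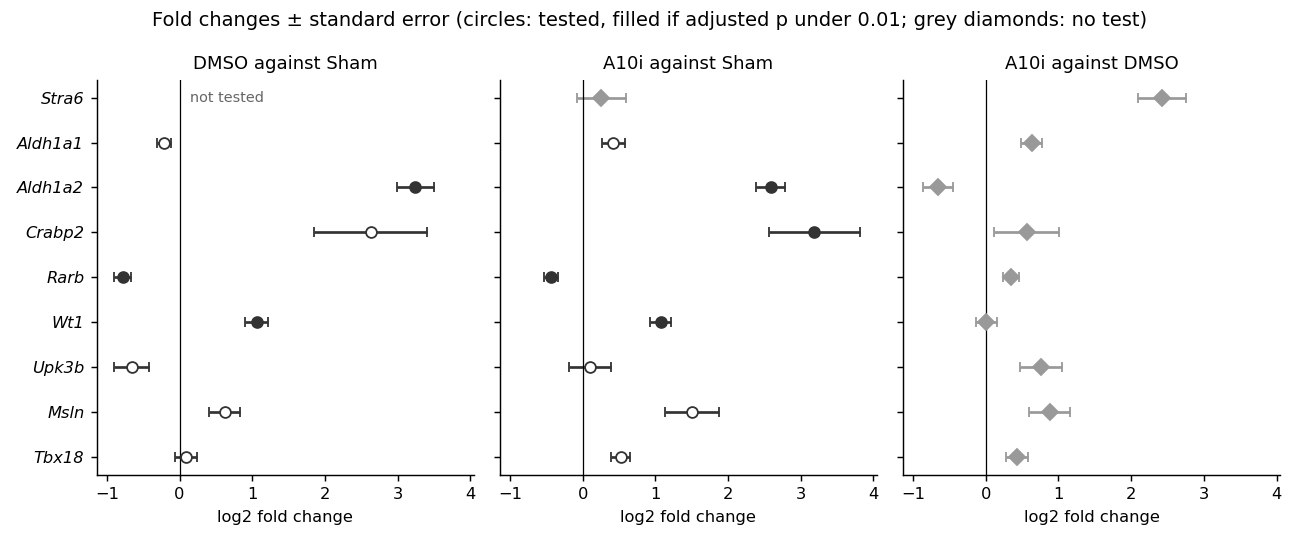
Log2 fold change of each gene (horizontal axis) with its SE in 3 comparisons; circles are tested values, filled where the adjusted p was under 0.01, and grey diamonds are values given without a test. Aldh1a2 had the largest tested value between DMSO and Sham mice (3.24), Rarb was below 0 against Sham in both panels, and Stra6 had the largest value between A10i and DMSO mice (2.43).

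Leaving out Stra6, which chose the set, and Crabp2, which passed the filter only through the infarcted groups, 7 members remained. Between DMSO and Sham mice 2 of them rose (Aldh1a2 and Wt1), 1 fell (Rarb) and 4 were not called, beside 12.9% of all genes called higher and 9.6% lower. Their median log2 fold change was 0.09, against 0.0021 over all genes. Between A10i and Sham mice again 2 rose (Aldh1a2 and Wt1), 1 fell (Rarb) and 4 were not called, beside 13.7% of all genes called higher and 9.11% lower. The median of the 7 was 0.52, against -0.0054 over all genes. With Crabp2 and Stra6 in the count, edgeR called 3 of 9 higher and 1 lower between A10i and Sham mice, beside the same shares of all genes. The count of 4 became 2 without S2, S3 or A120. In the contrast that chose the set, edgeR called no member and 0% of 16792 genes higher or lower, and limma-voom likewise 0%. At an unadjusted p under 0.05, edgeR had 6 members higher and 1 lower, beside 7.1% and 6.73% of all genes. Groups did not overlap for 4 members (Stra6, Aldh1a1, Rarb and Tbx18, all higher in A10i mice), beside 3.78% of all genes higher and 4.4% lower. DESeq2 called 2 members higher, beside 0.605% of 17508 genes higher and 0.714% lower. The last 3 of these counts include Stra6, whose values in this contrast chose the set, so nothing is read from them against the shares of all genes. The median of the 9 A10i to DMSO values, Stra6 included, was 0.56, against 0.0034 over all genes. Of the 9 values 8 were above 0, Wt1 only by 0.0088, and nothing is read from this either.

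Ordered by RPKM, Aldh1a1 led in Sham mice (5.98 ± 0.524, SD, n = 3), followed by Rarb (4.43), Upk3b (4.11), Msln (2.78), Aldh1a2 (2.76), Tbx18 (1.34), Wt1 (0.784), Stra6 (0.103) and Crabp2 (0.0484). Neighbours from Rarb to Aldh1a2 overlapped between mice, as did Stra6 and Crabp2. Aldh1a2 led in both infarcted groups, at 26.2 ± 6.80 RPKM in DMSO and 16.5 ± 3.32 RPKM in A10i mice (SD, n = 4), without overlap with Aldh1a1, second at 5.21 and 8.01 RPKM. Crabp2 came eighth and Stra6 last in both, at 0.328 and 0.0222 RPKM in DMSO mice and 0.489 and 0.122 RPKM in A10i mice. In both infarcted groups neighbours in the run Aldh1a1, Msln, Upk3b and Rarb overlapped, and Wt1 and Tbx18 overlapped each other.

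The other retinoid genes did not share 1 direction. Of 31 listed carriers, storage and oxidising enzymes, binding and degrading proteins, receptors and targets, 22 passed the filter between DMSO and Sham mice. There 6 were called higher, 6 lower and 10 in neither direction, beside 12.9% of all genes called higher and 9.6% lower. The median was -0.05, against 0.0021 over all genes. With library size scaling the split was 7 higher and 3 lower. Without S1, S2 or S3 the count of 12 became 6, 5 and 5, and the count over all genes went from 3858 to 1542, 1523 and 1540. Dhrs9, a retinol dehydrogenase, had 1, 0 and 0 counts in Sham mice and 34, 60, 66 and 110 in DMSO mice, a ratio of pooled rates of 186 (exact 95% interval 33.0 to 7357, counting error only). It passed the filter only through the DMSO mice and Lrat, described below, only through the Sham mice, so the calls of both, which are among the 12, are no support for a change. Aldh1a3 rose by 2.12 ± 0.354 (adjusted p = 0.00171). The receptor Rara and the retinol dehydrogenase Rdh10 rose by 0.93 ± 0.1 (adjusted p = 0.000233) and 0.84 ± 0.145 (adjusted p = 0.00193).

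Lrat and Cyp26b1 were lower in every DMSO mouse than in every Sham mouse. Lrat, which esterifies retinol for storage, had 4.83, 3.19 and 3.86 CPM in Sham mice, 0.169, 0.470, 0.168 and 0.234 CPM in DMSO mice, and 0.632, 0.579, 0.455 and 3.45 CPM in A10i mice. The fitted DMSO value was -3.89 ± 0.334, and A120 alone of the infarcted hearts was within the Sham range. Cyp26b1, which degrades retinoic acid, had 26.0, 35.9 and 22.9 CPM in Sham mice, 3.89, 1.61, 5.23 and 1.87 CPM in DMSO mice, and 1.54, 11.5, 1.57 and 14.4 CPM in A10i mice. It fell by 3.17 on the log2 scale in DMSO mice (SE 0.358, adjusted p = 0.000398), and A117 and A120 were the highest infarcted hearts. Rdh5, a retinol dehydrogenase, fell by 0.95 (SE 0.212, adjusted p = 0.00645).

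Between A10i and Sham mice, 22 of the 31 were tested. Of these, 7 were called higher and 2 lower, beside 13.7% and 9.11% of all genes. Dhrs9 and Rbp4 among the 7 passed the filter only through the A10i mice, Rbp4 named after its values were seen. The count of 9 was 3, 1 and 1 without S1, S2 and S3. None was called lower in those 3 settings, with library size scaling (8 higher) or in a fit of all 11 mice (7 higher). Lrat (-1.65 ± 0.615, adjusted p = 0.0627) and Cyp26b1 (-1.97 ± 0.71, adjusted p = 0.0636) did not pass there. Between A10i and DMSO mice edgeR called none of 21, with 1 higher and 2 lower at an unadjusted p under 0.05, beside 7.1% and 6.73% of all genes. The 1 higher was Lrat, which passed the filter there only through the A10i mice, so it is no support for a rise. DESeq2 called Rdh10 lower (edgeR -0.76 ± 0.13, adjusted p = 0.0707). Rdh10 had 16.5, 12.0, 16.6 and 13.9 CPM in DMSO mice and 8.14, 9.50, 7.82 and 9.22 CPM in A10i mice, beside 9.40, 7.42 and 7.72 CPM in Sham mice, so that A10i mice were near Sham and below DMSO without overlap.

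**Figure D4:**
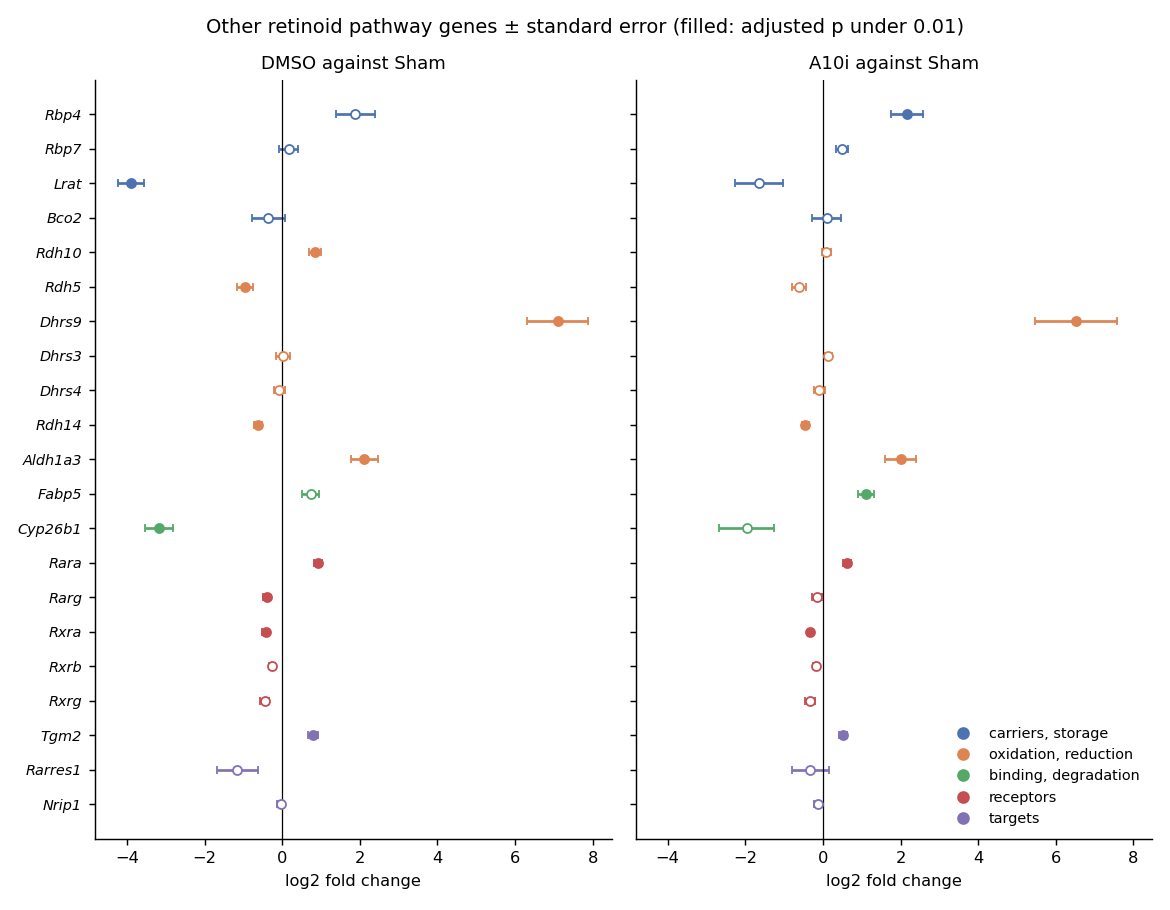
Log2 fold change against Sham (horizontal axis) with SE of 21 of the retinoid genes that passed the filter, colored by role, in DMSO mice (left) and A10i mice (right); filled points had an adjusted p under 0.01. Dhrs9 (7.10) and Lrat (-3.89) mark the ends on the left. Each passed the filter there through 1 group only, so their filled points are no support for a change.

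Genes of the epicardium and mesothelium were called in 1 direction only, though many were not called against Sham. Of 15 listed beside the members, 7 were called higher between DMSO and Sham mice, none lower and 8 were not called. Over all genes 12.9% were called higher and 9.6% lower. The median of the 15 was 0.55, against 0.0021 over all genes. Of the 15 values, 13 were above 0. The 2 below 0, Muc16 (-0.76 ± 0.383) and Rspo1 (-0.39 ± 0.326), were not called and are named after their values were seen. The 7 include the keratins Krt8 (3.12 ± 0.308, adjusted p = 0.000163), Krt18 (2.67 ± 0.277, adjusted p = 0.000198), Krt7 (2.07 ± 0.243, adjusted p = 0.000333) and Krt19 (1.72 ± 0.251, adjusted p = 0.000864), and the uroplakin Upk1b (1.29 ± 0.217, adjusted p = 0.0017). The other 2, Dmkn (5.86 ± 0.497) and the annexin Anxa8 (1.96 ± 0.358), passed the filter only through the infarcted groups. Their calls are therefore no support for a rise, and both also enter the median of the 15. Keratins are the filaments of epithelial and mesothelial cells. Krt8 went from 0.479, 0.779 and 0.483 CPM in Sham to 4.95, 5.71, 3.39 and 6.52 CPM in DMSO and 4.43, 12.7, 5.21 and 7.79 CPM in A10i mice. Dmkn had 0, 1 and 2 counts in Sham mice, and its pooled rate was 66.0 times as high in DMSO mice (288 against 3 counts, interval 22.4 to 322, counting error only).

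Between A10i and Sham mice 9 of the 15 were called higher and none lower, beside 13.7% and 9.11% of all genes. Dmkn and Anxa8 again passed the filter only through the A10i mice. The median of the 15, Dmkn and Anxa8 included, was 1.20, against -0.0054 over all genes. Between A10i and DMSO mice edgeR and DESeq2 called none of the 15, although all 15 values were above 0, 9 had an unadjusted p under 0.05 in edgeR, beside 7.1% of all genes higher, and the median was 0.65. Groups did not overlap for 3 of them, beside 3.78% of all genes higher: Muc16, Nkain4 and Sema3d, genes named after their values were seen. The list was chosen with earlier results of these data known, and its genes are not independent of each other. Nothing is therefore read from these A10i to DMSO counts against the shares of all genes. The list summed to 53.5, 34.9 and 49.5 CPM in Sham mice, 65.5, 89.1, 64.8 and 73.2 CPM in DMSO mice, and 86.3, 152, 87.7 and 127.995 CPM in A10i mice. A117 and A120 were the highest, as for Msln and Upk3b, and S2 was the lowest.

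**Figure D5:**
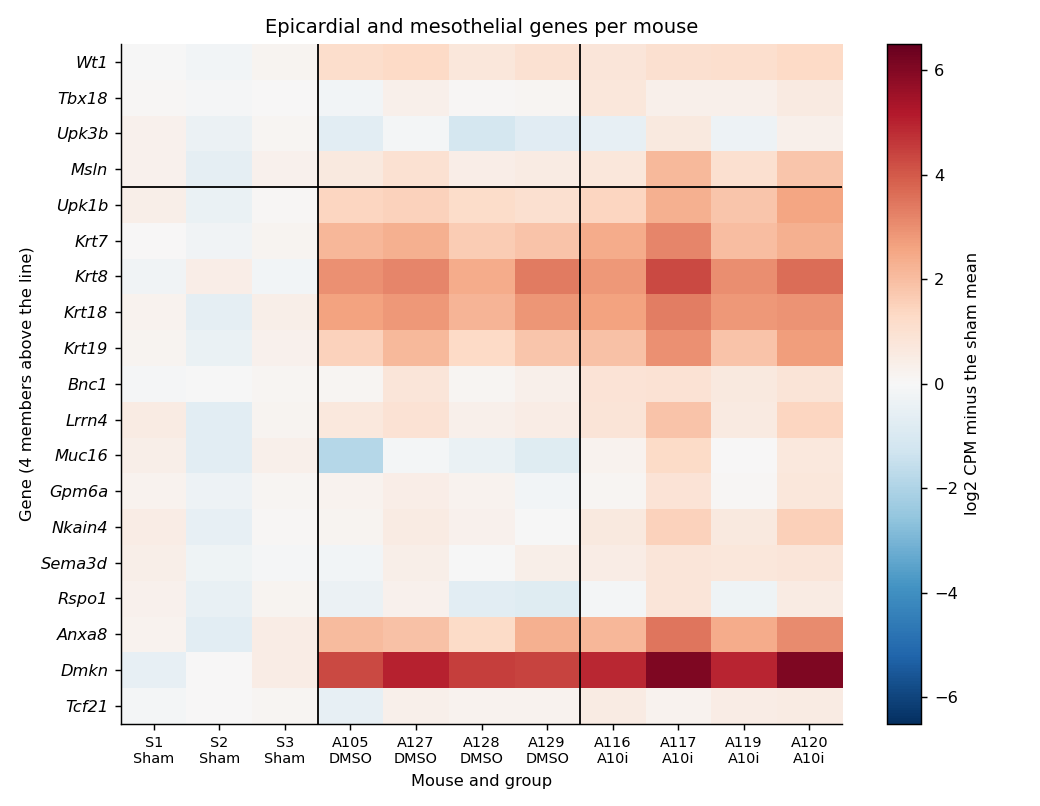
Level of each epicardial or mesothelial gene (rows, 4 members above the line) in each mouse (columns) as log2 CPM minus the mean of the Sham mice, from blue (lower) to red (higher). Keratins, Anxa8 and Dmkn were higher in every infarcted heart, and the columns of A117 and A120 were the darkest for Msln and Upk1b.

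Markers of other cell types differed between the groups as well. The 6 adipocyte markers summed to 3.05, 1.78 and 7.12 CPM in Sham mice, 7.41, 4.54, 2.48 and 6.21 CPM in DMSO mice, and 10.6, 25.6, 7.03 and 12.5 CPM in A10i mice, with A117 highest and Lep at 0 in all DMSO mice. The 5 atrial markers summed to 104 to 227 CPM in Sham, 479 to 1663 in DMSO and 520 to 967 in A10i mice, with Bmp10 at 0 in all Sham and DMSO mice. Nppa, also a stress gene of the ventricle, made most of that sum (1039 CPM on average in DMSO and 716 in A10i mice), while Myl7 (13.2 and 22.8), Myl4 (26.9 and 36.7) and Sln (3.98 and 6.77) had higher averages in A10i mice. Sham averages of Myl7, Myl4 and Sln were 6.10, 8.12 and 1.00 CPM. Against Sham all 4 tested atrial markers were above 0 in both infarcted groups, with a median of 1.85 in DMSO and 2.23 in A10i mice. Of them, 1 was called higher in DMSO (Nppa) and 2 in A10i mice (Nppa and Myl4), beside 12.9% and 13.7% of all genes. Sln, which enters both medians, passed the filter only through the infarcted mice in each comparison. Its values against Sham are therefore no support for a rise. Between A10i and DMSO mice 3 of 4 tested atrial markers were above 0, with a median of 0.62, and edgeR called none, with 0 at an unadjusted p under 0.05. The 6 fibroblast markers summed to 520 to 576, 912 to 3569 and 2434 to 5415 CPM in the same order. The 6 neutrophil markers summed to 1.04 to 2.09, 67.8 to 125 and 13.6 to 47.3 CPM. The 5 macrophage markers summed to 153 to 172 CPM in Sham, 191 to 289 in DMSO and 248 to 397 in A10i mice. The 6 endothelial markers summed to 825 to 846, 655 to 789 and 789 to 894 CPM in the same order, and the 4 Schwann cell markers to 8.02 to 11.2, 6.31 to 8.35 and 6.52 to 9.81 CPM. Mural markers (8 genes) summed to 1496 to 1597 CPM in Sham, 722 to 970 in DMSO and 882 to 1074 in A10i mice. The part of these markers in the values of the members was not tested. Lung epithelium, another keratin-bearing tissue, gave at most 0.297 CPM over 4 markers, with Sftpc and Scgb1a1 at 0 in all mice.

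The genes whose profile over the 11 mice was most like that of each member were found by the root mean square difference of centred log2 CPM among 17479 genes. For Stra6 they were Gpr1 (0.294), Omd (0.418) and Zp2 (0.443), and for Aldh1a1 Gas1 (0.119), Nbl1 (0.148) and Hpgd (0.152). Aldh1a2 was closest to Csf2rb (0.29), Sh2b2 (0.292) and Plaur (0.298), genes of which Csf2rb and Plaur are known from myeloid cells. Crabp2 was closest to Ska3 (0.391), Sgo1 (0.425) and Ttk (0.445), all of them genes of chromosome segregation. The neighbours of Msln were Lrrn4 (0.197), Nkain4 (0.246) and Plet1 (0.273), and those of Upk3b were Rspo1 (0.172), Chrd and Lrrn4cl (0.213 each). Lrrn4, Nkain4 and Rspo1 belong to the epicardial and mesothelial list. For Wt1 they were Gm28875 and Clu (0.178 each) and Gm10263 (0.196), for Rarb Wipf3 and St3gal6 (0.0825 each) and Zfp691 (0.0868), and for Tbx18 Rpe (0.0944), Mmp17 (0.101) and Uhrf2 (0.108). Among the members themselves the closest pair was Aldh1a1 and Tbx18 (0.256) and the farthest Stra6 and Aldh1a2 (1.97).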

How the data were processed

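RNA was sequenced from heart tissue of 11 mice, which the labels name as separate animals. Per the authors' methods and the submitters' processing notes, poly(A) libraries were strand-specific, reads were aligned to mm10 with GSNAP, and uniquely aligned reads were counted per Ensembl gene with featureCounts 2.0.1. The deposited table holds raw counts for 55513 rows and a length per gene. Its 92 spike-in rows (397 counts in all) were left out. Symbols came from GENCODE M21 (55154 of 55421 genes named) and promoters from RefSeq, GRCm38.p6. Totals were 21702623 to 29511768 counts, and counts of 2 replicates differed by more than sampling noise in all 15 pairs (chi-square divided by its degrees of freedom, 3.8 to 55.2, on genes with at least 10 counts).

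Testing used edgeR 4.0.16 under R 4.3.3 (filterByExpr, TMM, robust quasi-likelihood F-test, two-sided, Benjamini-Hochberg, adjusted p under 0.01), each on the libraries of its 2 groups. RPKM used the deposited lengths, and log2 CPM a prior count of 2. Alternatives were DESeq2 1.42.0, limma-voom 3.58.1, other normalizations, filters and thresholds, 1 fit of all mice, and each mouse left out. The statistics were tested on simulated data. The weighting step of the authors' own test was not used here.

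Members and gene lists were chosen with earlier results of these data known. Named were the members, at most 8 genes per list group with the largest change among those called between DMSO and Sham mice, and the 3 nearest genes per member. Of the genes that this rule names, 1 is not reported here, though it stays in the counts of its list.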

Additional observations from a re-analysis of the deposited data

Results flagged for a closer look

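Among 101 groups of 4 mice examined over the members and listed genes, 5 held a mouse whose gap to the nearest other in log2 CPM (prior count of 2), divided by the range on that scale, was above Dixon's critical value of 0.829, and chance gives about 1 in 20. Stra6l, a relative of Stra6, was at 1.15 CPM in A116 against 0.248 to 0.313 in the other A10i mice (gap 0.862 of the log2 range). Lrat was at 3.45 CPM in A120 against 0.455 to 0.632 (gap 0.848). Rxrb, a retinoid X receptor, was at 49.1 CPM in A119 against 41.0 to 41.6 (gap 0.928). In DMSO mice, Dhrs3, which reduces retinaldehyde, was at 90.1 CPM in A127 against 51.6 to 55.9 (gap 0.857). Tcf21, a transcription factor of epicardium and fibroblasts, was lowest in A105, at 5.21 CPM against 8.79 to 9.61 (gap 0.854). No member was among them.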

How the results depend on the processing

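Of 216 alternative values for the 16 tested fold changes of members against Sham, 192 kept direction and side of the threshold, 9 lost a call, 12 gained one and 3 turned in sign. The 3 were Aldh1a1 in DMSO mice with library size alone (0.0029) and Upk3b in A10i mice without S2 (-0.08) or A117 (-0.13; -0.13 to 0.27 with 1 mouse left out). Of 147 alternative values for 10 fold changes given without a test, 5 turned in sign: Stra6 between A10i and Sham mice without S2 (-0.0015; -0.0015 to 0.48 with 1 mouse left out), and 4 of Wt1 between A10i and DMSO mice, with library size alone (-0.01) and without A128, A129 or A120 (-0.08 to 0.09 with 1 mouse left out). The 3 members called between DMSO and Sham mice became 5 with no filter on low counts (Crabp2 and Stra6 added). A threshold of 0.05 also gave 5 (Crabp2 and Msln added), and 3 to 4 were called with 1 mouse left out. The added call was Stra6 without S2 and Crabp2 without A105. Calls of Crabp2 and Stra6 are no support for a change, for the reasons given with each gene. The 4 called between A10i and Sham mice became 2 to 5 with 1 mouse left out. The 12 other retinoid genes called between DMSO and Sham mice became 5 to 13, and the 9 between A10i and Sham mice 1 to 10, with 1 mouse left out. Between A10i and DMSO mice, 0 members became 2 with DESeq2 and 1 with no filter or a threshold of 0.05. Stra6, whose values chose the set, was among them each time. In that contrast 0 retinoid genes became 1 with DESeq2 or no filter. Leaving out a Sham mouse leaves 2 in that group; beyond this the cause was not tested. Counts of the epicardial and mesothelial list stayed within 1.5 times. With library size alone the median of all genes was 0.21 in DMSO and 0.18 in A10i mice against Sham, beside 0.0021 and -0.0054 with TMM. A filter of 10 counts in every mouse leaves no value for Crabp2, and for Stra6 only that between A10i and Sham mice (0.27), since the low counts of both limit their precision. No paired analysis was possible because the groups share no replicate numbers.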
